A study of Mus musculus with 18 samples.

Results

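The comparison described here is between the epididymal white adipose tissue (eWAT) of mice lacking the long noncoding RNA gene *Gm15551* and that of wild type mice. Its members are 6 of the 18 libraries of the series, chosen by tissue and genotype from the library titles, with 3 wild type (wt) and 3 knockout (ko) libraries, each from a different mouse. The mice were 12 weeks old, on a C57BL/6N background and fed a chow diet, and the knockout animals carried a CRISPR/Cas9 deletion that took in exon 1 of *Gm15551* in every tissue. Polyadenylated RNA of the fat pad was sequenced, and the remaining 12 libraries came from the inguinal white (iWAT) and interscapular brown (iBAT) fat of the same 6 mice. The deletion was present from the germ line on, so that a role in development and a role in the adult fat pad cannot be told apart. Levels are given as CPM, the count of a gene per 1000000 counts of the library after scaling by the trimmed mean of M values (TMM), and differences as log2 of knockout over wild type.

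Epididymal fat is the visceral fat pad attached to the epididymis, the duct in which sperm mature. It stores triglyceride in adipocytes that express *Adipoq*, the hormone adiponectin, and *Lep*, the satiety hormone leptin, and it is covered by a mesothelium that expresses *Wt1*, a transcription factor of visceral fat. Long noncoding RNAs are transcripts with little or no coding potential, some of which act on genes next to them, and the study created the knockout mice to ask whether *Gm15551* is needed for the function of adipose tissue. *Gm15551* is annotated as antisense to *Camk2d*, a subunit of the calcium/calmodulin-dependent protein kinase II, and lies inside that gene.

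*Gm15551* occupies chr3:126667329-126669044 on the minus strand (GRCm38, GENCODE M21) and has 2 exons. Exon 1, of 200 bases, lies at chr3:126668845-126669044 and exon 2, of 335 bases, at chr3:126667329-126667663. The transcript is shown because its reads check the genotype of each library, with exon 1 in capitals and the first 100 bases of exon 2 in lower case. The study states that the deletion included exon 1, the bases in capitals. The deletion interval it gives on GRCm38 does not overlap these coordinates, so the exact bases removed were not settled here.
Gm15551: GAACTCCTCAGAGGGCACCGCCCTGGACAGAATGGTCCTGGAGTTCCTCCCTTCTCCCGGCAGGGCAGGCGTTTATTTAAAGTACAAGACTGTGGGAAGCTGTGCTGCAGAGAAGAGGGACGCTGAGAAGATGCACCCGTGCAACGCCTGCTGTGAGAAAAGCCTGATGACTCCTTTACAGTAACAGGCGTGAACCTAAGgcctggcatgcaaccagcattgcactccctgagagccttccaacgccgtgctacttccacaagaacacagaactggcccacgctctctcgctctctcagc

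Total counts of the wild type libraries were 17072589, 17512600 and 16841608, and those of the knockout libraries 20246843, 34389586 and 14997901. Knockout library 2 was thus the deepest and knockout library 3 the shallowest, and a count of 0 allowed up to 3 counts, which corresponded to 0.0728 CPM in the former and 0.149 CPM in the latter. The labelled tissue was checked against its markers. *Wt1* lay between 5.05 and 14.4 CPM in the 6 epididymal libraries, at no more than 0.0974 CPM in inguinal fat and at 0 in brown fat, while *Ucp1*, the uncoupling protein of brown adipocytes, did not exceed 1.34 CPM in epididymal fat and lay between 3422 and 7994 CPM in brown fat. Knockout library 3 stood apart from the other epididymal libraries, with a median Pearson correlation of log CPM across genes of 0.892 with the other 5, against 0.952 for wild type library 1 and 0.975 to 0.978 for the remaining 4. It contained transcripts of the epididymis and of sperm, and the main results are therefore given with and without it.

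*Gm15551* was nearly absent from the knockout fat. The wild type libraries held 7.96, 9.61 and 11.7 CPM, from 181, 198 and 237 counts. The knockout libraries held 0, 0.0970 and 0 CPM, with all of the 4 counts in library 2. The wild type level was 9.76 ± 1.88 CPM and the knockout level 0.0323 ± 0.0560 CPM (SD, n = 3 each), and the groups did not overlap. The difference was -7.67 ± 0.92 on the log2 scale (SE; adjusted p = 0.0318, edgeR quasi-likelihood test with Benjamini-Hochberg adjustment), and the wild type level exceeded the pooled knockout level 207-fold, with a 95% interval of 80.7 to 758 that covers counting error only. Against 3 counts in each of the libraries at 0, the wild type mean was at least 65.7-fold higher. An exact two-sided permutation test of the 6 libraries gave p = 0.1, the smallest value that 3 against 3 allows. The adjusted p rose above 0.05 when any of the 6 libraries was left out, to between 0.0697 and 0.255, while the log2 difference stayed between -10.71 and -7.24. With the replicate number as a block the difference was -7.85 and no longer passed (adjusted p = 0.0794, edgeR). The same mice also lacked *Gm15551* in the other depots, with at most 0.0428 CPM in the knockout libraries of inguinal and brown fat.

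*Camk2d*, the host gene, lay at 79.5, 82.8 and 103.5 CPM in wild type and at 81.5, 81.4 and 52.7 CPM in knockout fat. Knockout libraries 1 and 2 lay inside the wild type range and library 3 lay below it. The log2 difference was -0.30 ± 0.18 (SE; 95% interval -0.69 to 0.09; adjusted p = 1, edgeR) with all libraries and -0.12 ± 0.16 (95% interval -0.48 to 0.24) without knockout library 3. Whether the counting used strand is not stated, so reads of *Gm15551* and of the *Camk2d* introns around it may not be separated in every library. The window of 1000000 bases on either side of *Gm15551* held 8 protein-coding genes, and none of the 6 that were tested passed the threshold (edgeR) in either comparison. *Larp7*, which codes for a protein that binds the 7SK RNA, lay between 16.8 and 19.2 CPM in wild type and between 17.5 and 20.2 CPM in knockout fat. *Arsj*, a sulfatase gene, lay lower in all knockout libraries, at 1.41, 1.41 and 2.12 CPM against 0.944, 0.801 and 0.792 CPM, a log2 difference of -0.96 ± 0.71 from 16 to 43 counts per library. *Neurog2* was at 0 in all 6 libraries and *Ndst4* and *Ugt8a* stayed below 0.3 CPM.

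**Figure D1:**
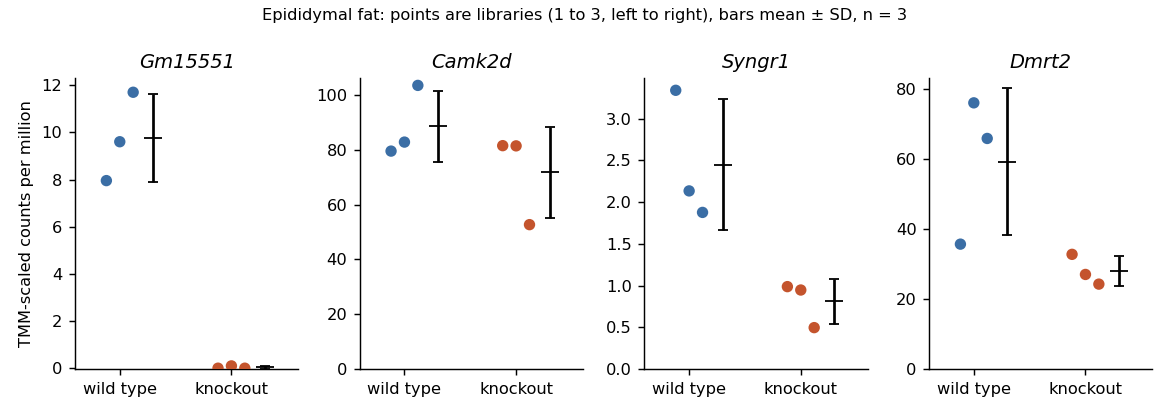
Level in TMM-scaled CPM (y axis, linear, 1 scale per gene) of Gm15551, its host gene Camk2d, and Syngr1 and Dmrt2, the genes next to Gm15551 in order of p among those lower in knockout fat and of at least 1 CPM, in wild type (blue) and knockout (orange) epididymal fat. Points are libraries 1 to 3 from left to right and bars the mean ± SD (n = 3); Gm15551 lies between 7.96 and 11.7 in wild type and at or below 0.0970 in knockout libraries, while Camk2d overlaps.

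Across all genes, *Gm15551* was the only gene that passed the threshold by edgeR, 1 of 18728 genes tested (0.00534%). At an unadjusted p under 0.05 there were 814 genes (4.35%), of which 673 were higher (3.59%) and 141 lower (0.753%) in knockout fat. These numbers depended on the model, with 180 genes (104 higher and 76 lower) from the epididymal libraries alone, 246 (158 and 88) with the mouse as a random effect, 523 (393 and 130) with the replicate number as a block and 1082 (595 and 487) by limma with voom and quality weights. The DESeq2 Wald test called 13 genes and voom 3. None was called in the epididymal libraries alone (*Gm15551* at an adjusted p of 0.521, edgeR), with the mouse as a random effect (0.99985, limma), with the block (0.0794, edgeR) or with a minimum of 10 counts in every epididymal library, which *Gm15551* does not reach. The groups did not overlap for 983 genes (5.25%), with the knockout libraries above all wild type libraries for 551 (2.94%) and below all of them for 432 (2.31%). The excess of higher genes among the 814 came with knockout library 3, which had the highest level of the 6 libraries for 608 of the 673 higher genes. Of all tested genes, that library was the highest of the 6 for 32.6% and the lowest for 34.7%, whereas no other library exceeded 18.2% or 16.1%, respectively.

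Genes of the epididymis were far higher in knockout library 3 than in any other epididymal library. *Crisp1*, a secreted protein that coats maturing sperm, was measured at 2987 CPM in knockout library 3, with 0 and 0.0485 CPM in knockout libraries 1 and 2 and 3.91, 0 and 0.296 CPM in wild type libraries 1 to 3. It was thus 763-fold above the next library. *Spint4*, a protease inhibitor of the Kunitz type, reached 2099 CPM from 42402 counts, against at most 6 counts in any other epididymal library. *Spink8*, a Kazal-type protease inhibitor, reached 1514 CPM against 4.66 CPM or less in the other epididymal libraries. *Ces5a*, a carboxylesterase of the epididymis, reached 648 CPM, *Adam7*, a membrane protein that passes to sperm, 318 CPM, and *Lcn5*, a retinoic acid binding lipocalin, 272 CPM.

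The list of 20 epididymis genes summed to 7982 CPM in knockout library 3, to 50.2 CPM in wild type library 1 and to between 0.922 and 4.94 CPM in the other 4. Of its 20 members, 16 were higher in knockout library 3 than in every other library, 10 of them more than 10-fold. The inguinal and brown fat of the same mouse summed to 1.25 and 0.644 CPM, inside the range of 0.324 to 1.54 CPM of the 12 libraries of these depots. *Spint4* had no count in any of those 12. Only 2 of the 20 genes passed the filter on low counts, *Adam7* and *Adam28*, since the filter asks for a minimum level in at least 3 libraries, and neither passed the test.

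Genes with at least 100 counts that were more than 10-fold above every other epididymal library, with 0.1 CPM added to the latter, numbered 402 in knockout library 3, and they took 5.41% of its counts against 0.143% of those of wild type library 1, the next highest. The 402 genes are 0.740% of the rows in the table, and 345 were protein-coding and 206 passed the filter on low counts. They included 15 of the 43 genes of the *Defb* family of beta-defensins in the table, 8 of the 18 *Wfdc* genes of whey acidic protein domain inhibitors, 6 of the 12 *Spink* and 3 of the 5 *Spint* protease inhibitor genes, 3 of the 4 *Crisp* genes, 3 of the 14 *Pate* genes, 3 of the 10 *Rnase* genes and 1 of the 34 *Adam* genes. *Wfdc13* reached 1171 CPM and *Defb23*, named after its values were seen, 836 CPM. The 15 genes with the highest ratio also included *Pate1*, *Pate2*, *Akr1b7*, *Abcb5* and *Ly6f*. The *Lcn* family had 2 genes among the 402, *Lcn5* and *Lcn12*, and the *Cst* family had none. *Gpx5*, a glutathione peroxidase of the epididymis, lay at 13.8 CPM against 1.14 CPM in wild type library 3 and 0 in the other 4. Genes outside these families, such as *Gldc* and *Atg4a*, were among the 402 as well.

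Transcripts of germ cells were present at a lower level. The list of 15 genes of spermatids and sperm summed to 157.9 CPM in knockout library 3 and to between 3.35 and 12.2 CPM in the others, and all 15 members were highest in knockout library 3. *Prm2*, a protamine that packs sperm DNA, was measured at 37.5 CPM there, against 2.51, 2.81 and 0.0988 CPM in wild type libraries 1 to 3 and 0 and 0.218 CPM in knockout libraries 1 and 2. *Odf1*, of the outer dense fibres of the sperm tail, reached 21.1 CPM against 0.528 CPM or less. Of the genes of Leydig and Sertoli cells, the somatic cells of the testis, only *Cyp17a1*, an enzyme of androgen synthesis, was more than 10-fold higher, at 32.6 CPM against 1.07 CPM or less. *Insl3*, the hormone of Leydig cells, was instead lowest in knockout library 3, at 3.86 CPM against 6.37 to 10.3 CPM, and *Rhox5*, *Hsd3b1* and *Hsd17b3* did not exceed 0.437 CPM in any of the 6 libraries.

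Of the 12 general epithelial genes, 9 were highest in knockout library 3. The 12 genes summed to 565 CPM in knockout library 3, to 82.0 CPM in wild type library 1 and to 3.37 to 5.49 CPM in the other 4. They also differed among the inguinal libraries, with 90.3 CPM in that of the same mouse, 49.0 CPM in knockout library 2 and 35.3 CPM in wild type library 3, against 3.84 to 7.96 CPM in the remaining 9 inguinal and brown fat libraries. *Epcam*, an adhesion molecule of epithelia, was measured at 183 CPM in knockout library 3 and 37.4 CPM in wild type library 1, with 2 counts or fewer in each of the other epididymal libraries, and at 31.1 CPM in the inguinal fat of the mouse of knockout library 3. *Krt5*, a keratin of basal epithelial cells, had 950 counts in knockout library 3 and none in the other epididymal libraries, and it had 122 and 189 counts in inguinal knockout libraries 2 and 3 and 79 in inguinal wild type library 3. The list for mesothelium and visceral fat summed to 760.5 CPM in knockout library 3 and to 117.8 to 221 CPM in the others. Of its 14 members, 4 were highest in knockout library 3. These were the keratins *Krt8* (323 CPM), *Krt18* (302 CPM) and *Krt19* (53.0 CPM), which other epithelia express too, and *Wnt4* (36.8 CPM). Another 8 of the 14 were lowest there, as were 34.7% of all tested genes. Among these 8 were *Wt1*, *Msln* and *Upk3b*, markers of the mesothelium itself, at 5.05, 6.04 and 13.1 CPM.

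The other libraries carried genes of their own on a smaller scale, and the genes in this paragraph outside the lists were named after their values were seen. With a minimum of 10 counts, 571 genes of knockout library 3 and 115 of wild type library 1 were more than 10-fold above every other epididymal library, and the latter took 0.158% of the counts of wild type library 1. Among the 115 were *Foxj1*, the transcription factor of motile cilia, at 45.5 CPM against 0.146 CPM or less, *Dcdc2a*, a doublecortin domain gene, at 82.5 CPM against 3.71 CPM or less, and *Cldn2*, a tight junction protein, at 46.9 CPM against 0.248 CPM or less. In wild type library 2 the genes of this kind were 5, all of them of the *Svs* family of seminal vesicle secretory proteins, with *Svs2* at 9.70 CPM against 0.0494 CPM or less. Knockout library 1 had 2 such genes, wild type library 3 had 6 and knockout library 2 had 5, one of which was *Ren1*, the renin gene, at 4.20 CPM against 0.291 CPM or less.

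**Figure D2:**
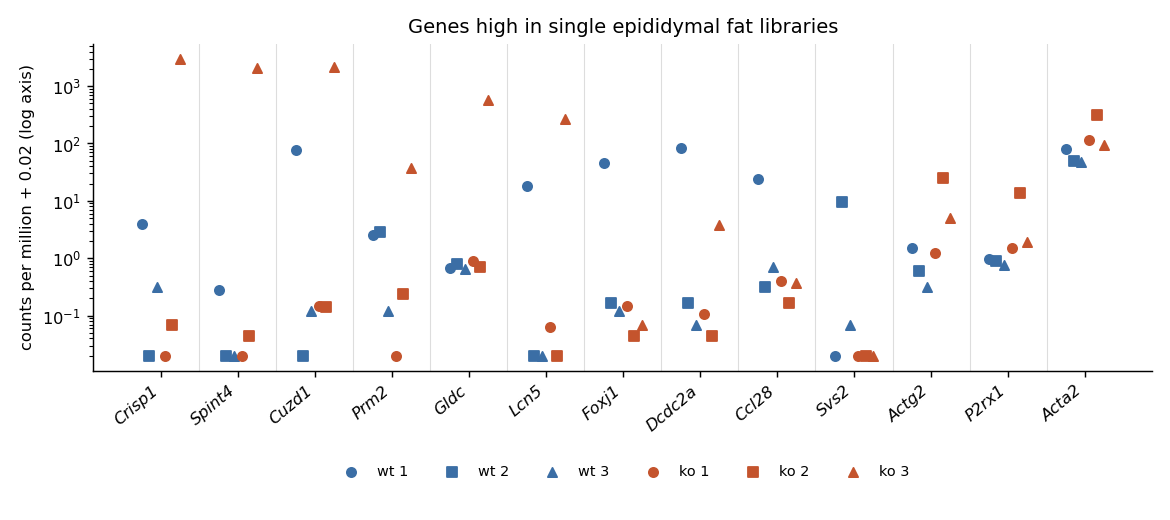
CPM plus 0.02 (log axis) of 13 genes in the 6 epididymal fat libraries, wild type in blue and knockout in orange, with circles, squares and triangles for libraries 1, 2 and 3. Crisp1 to Lcn5 are highest in knockout library 3 (37.5 to 2987 CPM), Foxj1 to Ccl28 in wild type library 1, Svs2 in wild type library 2, and Actg2 to Acta2 in knockout library 2.

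Most genes of fat itself were lowest in knockout library 3. All 21 adipocyte genes had their lowest level of the 6 libraries there, where 34.7% of all tested genes did. Their sum was 26903 CPM, against 42247 to 62292 CPM in the other 5. *Adipoq* was measured at 1370, 2205 and 2467 CPM in wild type and at 2095, 2497 and 1033 CPM in knockout fat, and *Lep* at 768, 764 and 447 CPM and at 907, 651 and 198 CPM. The sum of 14 lipogenesis genes was 12005 CPM against 22952 to 37772 CPM, with *Fasn*, the fatty acid synthase, at 3072, 5691 and 3751 CPM in wild type and at 7886, 3967 and 1063 CPM in knockout fat. Of the 14, 12 were lowest in knockout library 3, while *Scd2* was highest there, at 688 CPM against 516 CPM or less.

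The same library was lowest for other lists as well, among them the nerve and skeletal muscle lists and the 4 given here. Macrophage genes summed to 339 CPM against 694 to 951 CPM, stromal and progenitor genes to 3913 CPM against 7017 to 8739 CPM, endothelial genes to 742 CPM against 1324 to 1668 CPM, and genes of antigen presentation and lymphocytes to 416 CPM against 911 to 1482 CPM. Lowest there were 14 of 18 macrophage, 12 of 16 stromal, 8 of 10 endothelial and 7 of 16 antigen presentation and lymphocyte genes, beside 34.7% of all tested genes. The lymphocyte genes *Cd3e*, *Cd79a* and *Ms4a1* lay inside the range of the other libraries. In bulk tissue, fewer cells of a type and less RNA per cell cannot be told apart. The summed levels of the epididymis and sperm genes in knockout library 3 are given above, and their part in these lower values was not tested.

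**Figure D3:**
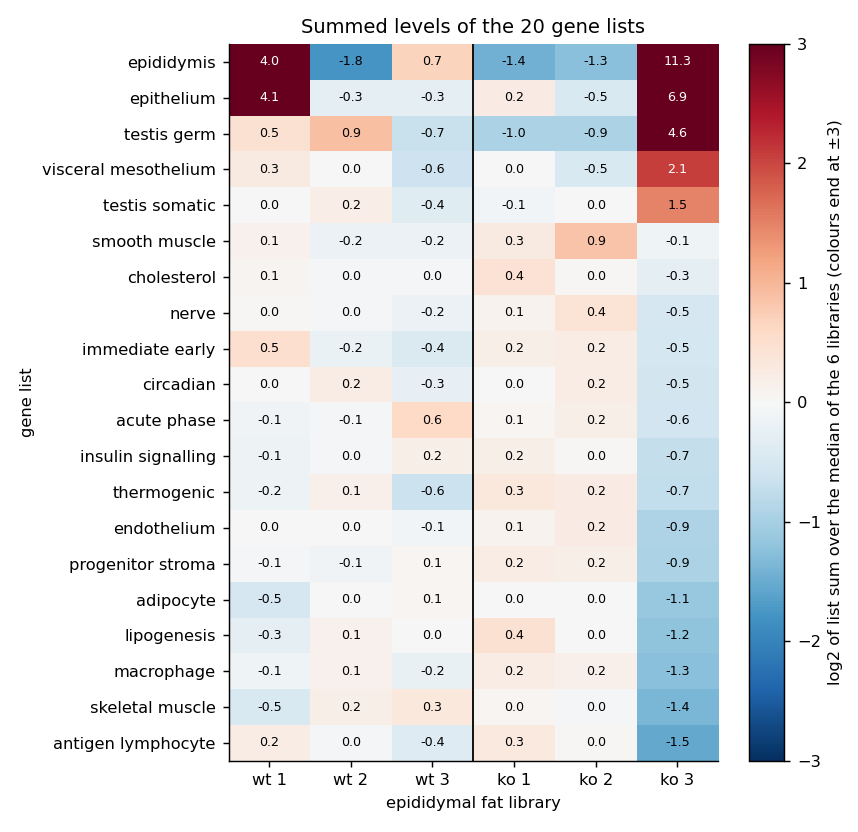
Log2 of the summed CPM of each gene list over the median of the 6 epididymal fat libraries (numbers and colours; colours end at ±3), with wild type libraries to the left of the black line and knockout libraries to the right. Knockout library 3 is highest for the epididymis (11.3), epithelium (6.9) and testis germ cell (4.6) lists and lowest for adipocyte (-1.1), lipogenesis (-1.2) and macrophage (-1.3) genes, and knockout library 2 is highest for smooth muscle (0.9).

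Of the 814 genes at an unadjusted p under 0.05 by edgeR on all 18 libraries, most lost that p without knockout library 3. Without it, 0 of 19588 genes passed the threshold by edgeR (0%) and 413 had an unadjusted p under 0.05 (2.11%), 144 of them higher (0.735%) and 269 lower (1.37%). The number did not fall in every model. With voom it was 1082 with and 1039 without the library, the latter 621 higher and 418 lower, and in the epididymal libraries alone it rose from 180 to 390, with 233 higher and 157 lower. With the replicate block in the epididymal libraries alone it rose from 127 to 363. The DESeq2 Wald test called 18 genes and limma with voom and quality weights 6 in the same 17 libraries. Of the 814 genes of the full comparison, 146 (17.9%) kept an unadjusted p under 0.05 and their direction without knockout library 3, whereas 722 (88.7%) did so without knockout library 1 and 701 (86.1%) without knockout library 2. The direction turned for 248 of the 814 without knockout library 3, for 32 without wild type library 1 and for none without any other library. The size of the log2 difference fell to under 50% for 524 genes without knockout library 3 and for at most 82 without any other library. For 271 of the 814 genes, knockout libraries 1 and 2 both lay inside the wild type range.

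**Figure D4:**
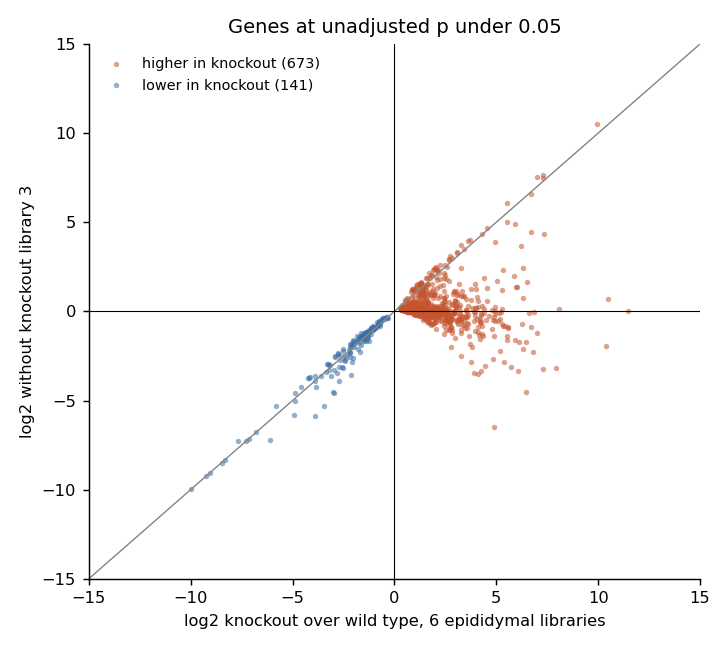
Log2 of knockout over wild type from all 6 epididymal fat libraries (x axis) against the same value without knockout library 3 (y axis) for the 814 genes at an unadjusted p under 0.05, higher (orange, 673) or lower (blue, 141) in knockout fat; the grey line marks equal values. Most orange points lie near 0 on the y axis and 248 genes lie across the 0 line, while the blue points follow the grey line.

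**Figure D5:**
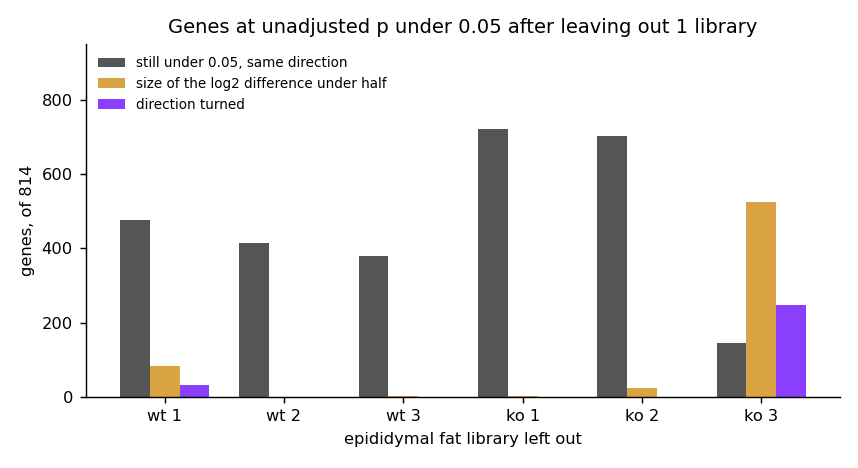
Number of the 814 genes (y axis, from 0) that kept an unadjusted p under 0.05 and their direction (grey), whose log2 difference shrank to under 50% in size (yellow) or turned (violet) after leaving out the epididymal library named on the x axis. Leaving out knockout library 3 kept 146 genes and turned 248, and leaving out any other library kept 379 to 722.

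Among the 10 higher genes of at least 1 CPM with the smallest p-values, 5 stood out in knockout library 3 and 5 in knockout library 2. *Gldc*, the glycine decarboxylase of mitochondria, was measured at 0.659, 0.776 and 0.642 CPM in wild type and at 0.858, 0.679 and 573 CPM in knockout fat, so that the log2 difference of 8.10 ± 2.04 (SE) became 0.14 ± 0.71 without library 3. *Atg4a*, a protease of autophagy, showed the same with 16.4, 15.6 and 12.1 CPM against 16.0, 14.3 and 317 CPM, a log2 difference of 2.98 ± 0.83 that became 0.04 ± 0.15. *Nrgn*, a calmodulin-binding protein known from neurons, lay at 107 CPM in knockout library 3 and at 4.04 to 8.78 CPM in the others, and its log2 difference of 2.85 became 0.40. *Best1*, a chloride channel, lay at 9.26 CPM against 0.247 to 0.704 CPM, with log2 differences of 3.38 and 0.89. *St8sia5*, a sialyltransferase, had no more than 2 counts in any other epididymal library. None of these 5 genes passed the threshold by edgeR with or without the library.

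The other 5 were *Acta2*, *Myh11*, *Actg2*, *P2rx1* and *Ak5*, and the first 3 are contractile proteins of smooth muscle. *Acta2*, smooth muscle alpha actin, was measured at 78.9, 49.6 and 47.8 CPM in wild type and at 114, 315 and 94.3 CPM in knockout fat. All 3 knockout libraries lay above the wild type libraries and library 2 lay far above the other 2. The log2 difference was 1.57 ± 0.36 (SE; adjusted p = 1, edgeR), 1.87 ± 0.33 (adjusted p = 0.660) without knockout library 3 and 0.82 without knockout library 2. *Myh11*, the smooth muscle myosin heavy chain, followed with 83.6, 51.9 and 42.4 CPM against 93.9, 261 and 78.9 CPM, where knockout library 3 lay inside the wild type range. *Actg2*, the enteric gamma actin, lay at 1.49, 0.582 and 0.296 CPM in wild type and at 1.20, 24.9 and 4.95 CPM in knockout fat. *P2rx1*, an ATP-gated channel, lay at 0.967, 0.873 and 0.741 CPM and at 1.50, 13.6 and 1.88 CPM, without overlap, and its log2 difference of 2.72 was 3.13 without knockout library 3, where the DESeq2 Wald test called it (adjusted p = 0.00349), and 0.96 without knockout library 2.

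For the list of 10 smooth muscle and pericyte genes, none passed the threshold by edgeR, 9 had a higher fitted level in knockout fat, 5 were higher at an unadjusted p under 0.05 (3.59% of all genes were) and the median log2 difference was 0.82, where the median of all genes was 0.01. The list was chosen with earlier results of these data known, and it holds *Acta2*, *Myh11* and *Actg2*, so these values are a description. The DESeq2 Wald test called *Acta2* and *Actg2* (adjusted p = 0.0311 each), and without knockout library 3 also *Myh11* and *Tagln*, while voom called *Acta2* (adjusted p = 0.0153). The median was 1.12 without knockout library 3 and 0.30 without knockout library 2. In the latter comparison, 3 of the 10 genes were higher at an unadjusted p under 0.05, as were 1261 of all 19870 tested genes. Knockout library 2 was the highest of the 6 for 8 of the 10 genes, as it was for 1876 of all 18728 tested genes, and the list summed to 1895 CPM there, 1270 and 956 CPM in knockout libraries 1 and 3 and 1138, 920 and 927 CPM in wild type libraries 1 to 3. The inguinal and brown fat of the mouse of knockout library 2 summed to 617 and 881 CPM, inside the ranges of their depots. *Tagln*, an actin-binding protein of smooth muscle, lay at 54.3, 49.4 and 49.8 CPM and at 74.1, 225 and 49.6 CPM, and its log2 difference of 1.19 became 0.26 without knockout library 2. *Vwf*, the von Willebrand factor of endothelium, lay at 54.3, 62.0 and 59.7 CPM and at 82.1, 230 and 55.9 CPM, whereas *Pecam1*, which endothelium expresses throughout, lay at 265, 240 and 236 CPM and at 263, 291 and 133 CPM. The part of knockout library 2 in the higher values of these genes was not tested beyond leaving it out.

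Among the 141 lower genes, wild type library 1 had the highest level of the 6 libraries for 106. *Ccl28*, a chemokine of mucosal epithelia, was measured at 24.4, 0.291 and 0.692 CPM in wild type and at 0.386, 0.146 and 0.347 CPM in knockout fat, and its log2 difference of -4.87 ± 1.39 (SE) was -0.77 without wild type library 1. *Cdhr3*, a cadherin of ciliated cells, lay at 10.4, 0.243 and 0.247 CPM and at 0.0858, 0.194 and 0.0495 CPM, with log2 differences of -4.88 and -1.03. *Rap1gap*, a regulator of the GTPase Rap1, lay at 25.1, 1.21 and 0.692 CPM and at 0.772, 1.07 and 1.09 CPM, and its log2 difference of -3.20 became 0.03. *Igsf11*, *Dnah6* and *Gm19935*, the other genes of this kind among the 10 of at least 1 CPM with the smallest p-values, had the same pattern, with wild type library 1 at 10.8, 7.30 and 6.90 CPM and every other library at or below 1.04 CPM.

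Of these 10 lower genes, *Syngr1*, *Dmrt2* and *Dennd2a* remained beside *Gm15551*, and each lay below the wild type range in all 3 knockout libraries. The same held for 432 of all 18728 tested genes (2.31%), and the 10 were selected by p from the same libraries. *Syngr1*, which codes for the vesicle membrane protein synaptogyrin 1, was measured at 3.34, 2.13 and 1.88 CPM in wild type and at 0.987, 0.946 and 0.495 CPM in knockout fat, from 10 to 76 counts. Its log2 difference was -1.58 ± 0.29 (SE; 95% interval -2.20 to -0.95; adjusted p = 0.580, edgeR), and -1.34 ± 0.28 (adjusted p = 0.982) without knockout library 3, and among lower genes of at least 1 CPM its p was the smallest after *Gm15551* in both comparisons. The DESeq2 Wald test called it in both, with adjusted p-values of 0.00113 and 0.0279, and voom did not call it in either. In inguinal and brown fat of the same mice its log2 differences were 0.30 (unadjusted p = 0.271) and -0.06 (unadjusted p = 0.814, edgeR), and the difference between epididymal fat and the mean of these depots, -1.69, had an unadjusted p of 0.000160 and an adjusted p of 1 (edgeR). *Dmrt2*, a transcription factor with a DM domain, lay at 35.7, 76.1 and 65.9 CPM in wild type and at 32.8, 27.0 and 24.3 CPM in knockout fat, a log2 difference of -1.08 ± 0.30 that was -0.99 ± 0.34 without knockout library 3. *Dennd2a*, a regulator of Rab GTPases, lay at 32.5, 33.4 and 36.1 CPM and at 26.8, 24.9 and 17.5 CPM, with log2 differences of -0.56 ± 0.17 and -0.40 ± 0.15. Both had an adjusted p of 1 (edgeR).

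An unadjusted p under 0.05 in the same direction was kept by 35 of the 814 genes whichever of the 6 libraries was left out, 25 higher and 10 lower, and 25 of the 35 are protein-coding. They are 35 of 18728 tested genes, and the comparisons share most of their libraries, so they are not independent of one another. *Gm15551*, *Syngr1*, *Dmrt2*, *Dennd2a*, *Acta2*, *Myh11*, *Actg2*, *P2rx1* and *Ak5* were among the 35. So were genes uneven within a group. *Rps7-ps3* had 0, 151 and 192 counts in wild type and none in knockout fat. *Gm20431* had none in wild type and 194, 323 and 0 in knockout fat. The following 3 were chosen after their values were seen. *Fhl1*, a LIM domain protein of muscle, lay at 103, 44.0 and 52.0 CPM in wild type and at 189, 121 and 265 CPM in knockout fat, a log2 difference of 1.53 ± 0.44 that was 1.22 ± 0.46 without knockout library 3. *Edn1*, the vasoconstrictor peptide endothelin 1, lay at 3.69, 4.37 and 4.49 CPM and at 6.22, 12.3 and 15.1 CPM, with log2 differences of 1.42 ± 0.46 and 1.15 ± 0.49. *Snurf* had 21, 14 and 4 counts in wild type and none in knockout fat, but it shares its transcript with *Snrpn*, which lay between 13.7 and 15.1 CPM in wild type and between 10.7 and 17.6 CPM in knockout fat, so the division of reads between the pair is uncertain. All 3 had an adjusted p of 1 (edgeR), and *Snurf* was called by the DESeq2 Wald test (adjusted p = 0.0311).

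By edgeR, no gene of the adipocyte list passed the threshold or had an unadjusted p under 0.05, with or without knockout library 3. With it, 20 of the 21 had a lower fitted level in knockout fat and the median log2 difference was -0.16. Without it, 19 of the 21 had a higher one and the median was 0.17. *Adipoq* changed its log2 difference from -0.10 ± 0.38 to 0.19 ± 0.38 (95% interval -0.64 to 1.02), and *Lep* from -0.17 ± 0.66 to 0.24 ± 0.67 (95% interval -1.25 to 1.72). The lipogenesis list went from a median of -0.07 to 0.23, with *Fasn* at 0.05 ± 0.71 and 0.50 ± 0.67, and *Scd1*, the stearoyl-CoA desaturase, at -0.10 ± 0.65 and 0.22 ± 0.68. For *Lep* and *Scd1* (95% interval -1.28 to 1.72) the intervals without knockout library 3 took in a 2-fold difference in either direction.

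The medians of the macrophage, endothelial, stromal, lymphocyte and mesothelial lists also changed sign. The macrophage list of 18 genes had a median of -0.08 with and 0.19 without knockout library 3, with *Adgre1*, the macrophage antigen F4/80, at -0.04 ± 0.63 and 0.30 ± 0.66. The endothelial list of 10 had medians of -0.15 and 0.15, the stromal list of 16 of -0.04 and 0.16, and the list of 16 genes of antigen presentation and lymphocytes of -0.26 and 0.08. *Pecam1* went from -0.11 ± 0.21 to 0.16 ± 0.12 (95% interval -0.11 to 0.43). The mesothelial list of 14 had medians of 0.16 and -0.08, and *Wt1* values of -0.42 ± 0.49 and -0.13 ± 0.47. No gene of these lists passed the threshold by edgeR.

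For the remaining lists no gene but *Gm15551*, in the list of the locus and the *Camk2* genes, passed the threshold by edgeR. The DESeq2 Wald test also called *Krt5* of the epithelium list (adjusted p = 0.00210), whose epididymal counts were all in knockout library 3. The median log2 difference with and without knockout library 3 was 0.07 and 0.03 for 13 and 14 tested cholesterol synthesis genes, -0.02 and 0.07 for 11 thermogenic genes, -0.26 and -0.10 for 9 acute phase genes, -0.03 and 0.08 for 11 genes of insulin signalling and -0.06 and 0.10 for 15 circadian genes. It was 0.01 and -0.03 for 10 immediate early genes, 0.09 and 0.33 for skeletal muscle genes, 0.20 and 0.46 for 6 nerve genes and 0.00 and -0.12 for the 5 genes of the locus list. The medians of the epididymis (2.90 and -1.77), germ cell (2.45 and -2.46) and epithelium (2.78 and -0.97) lists turned from higher to lower, with 2, 6 and 9 genes tested with and 4, 6 and 9 without the library, so that the medians need not cover the same genes. Those of 6 genes of Leydig and Sertoli cells were -0.09 and -0.10.

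To ask whether the effect of the knockout differed between depots, the difference in epididymal fat was compared with the mean of those in inguinal and brown fat. By edgeR, 0 of 18728 genes passed the threshold (0%) and 485 had an unadjusted p under 0.05 (2.59%). The DESeq2 Wald test called 6 and limma with voom and quality weights 0. The comparison was 0.70 on the log2 scale for *Gm15551* (unadjusted p = 0.378, adjusted p = 1, edgeR), which lay far below the wild type level in all 3 depots. Without knockout library 3, 327 genes had an unadjusted p under 0.05 and 0 passed the threshold.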

How the data were processed

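RNA of 3 adipose tissues from 6 mice was sequenced as paired-end poly(A) libraries. According to the submitters' processing notes, bcl2fastq, cutadapt, Salmon and DESeq2 were used with GRCm38. The table deposited by the authors holds unnormalised, whole-numbered counts for each gene, estimated by Salmon. The study's methods name GENCODE M22, alone or with RNAcentral, as the reference. Which was used here, the strand setting and the step to genes are not given in the sources used here. Of 54347 rows, 54094 were matched to GENCODE M21 for names and positions.

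The counts were tested with edgeR 4.0.16 (glmQLFit, glmQLFTest; R 4.3.3) on all 18 libraries with a mean for each of the 6 groups, filterByExpr and TMM scaling, and p-values were adjusted by Benjamini-Hochberg with a threshold of 0.05. This gave 12 residual degrees of freedom, and the residual degrees of freedom of each fit, 1 fewer where a library was left out, set the 95% intervals. The SE is the log2 difference over the square root of F. DESeq2 1.42.0 and limma 3.58.1 were alternatives, and each epididymal library was left out in turn. The code was tested on simulated data.

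Named genes were *Gm15551*, *Camk2d*, the 275 members of 21 lists, genes past the threshold, the 10 genes per direction with the smallest p and a mean of at least 1 CPM, with and without knockout library 3, the 15 genes with the highest ratio of that library to the others (at least 100 counts, 0.1 CPM added), and protein-coding genes within 1000000 bases. Members and lists were chosen with earlier results of these data known.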

Additional observations from a re-analysis of the deposited data

Results flagged for a closer look

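In knockout library 3, the summed CPM of 7 of the 21 gene lists lay further from the other 5 epididymal libraries than Dixon's critical value of 0.625 allows for a group of 6; both genotypes were pooled for this. The value is the gap to the nearest library divided by the range of all 6, on log2 sums. It was 0.663 for the list of mesothelium and visceral fat, 0.668 for germ cells and 0.692 for Leydig and Sertoli cells, where knockout library 3 was highest. Single genes carried part of these sums. *Cyp17a1* gave 32.6 of the 46.3 CPM of Leydig and Sertoli cells. *Krt8* and *Krt18* gave 323 and 302 of the 760.5 CPM of the mesothelium list. The value was 0.727 for stromal and progenitor genes, 0.695 for macrophages, 0.715 for endothelium and 0.635 for insulin signalling, where knockout library 3 was lowest. Chance would give about 1.05 such values among 21 independent lists, but the sums of a library move together, and knockout library 3 was already known to hold epididymis and testis transcripts, so the values are a description. No other library was set apart by this measure. The epididymis and epithelium lists did not pass it, since wild type library 1 also lay above the remaining 4 libraries.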

How the results depend on the processing

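No label says what a replicate number shares between the genotypes. The identifiers of the wild type and knockout mouse of the same number share a prefix and lie close together. The prefix for number 2 differs from that of 1 and 3. The study describes wild type litter mates for its diet experiment, without saying whether the mice compared here were siblings. Over all tested genes, the deviations of same-numbered epididymal libraries from their group means correlated at -0.324, 0.275 and -0.270. Wild type library 1 and knockout library 3 correlated at 0.407. Those libraries also had the highest sums of the epididymis and epithelium lists, so these correlations cannot decide whether the numbers mark pairs. The main comparison did not take the numbers as pairs. Over the 15 circadian genes, examined after seeing the data, the same pairs correlated at 0.227, 0.734 and 0.463, and those of brown fat at 0.806, 0.797 and 0.945, but those of inguinal fat at 0.665, 0.560 and -0.00740, and whether the numbers mark pairs was not settled. With the number as a replicate block, 0 genes were called with all tissues or in epididymal libraries alone, and *Gm15551* lay at -7.85 (adjusted p = 0.0794) and -7.84 (adjusted p = 0.999, edgeR). The count of called genes, 1 in the full comparison and 1 among list members, was 0 with a minimum of 10 counts in every library, with epididymal libraries alone (*Gm15551* at -7.66, adjusted p = 0.521), with the mouse as a random effect (-7.80, limma), in each comparison leaving out 1 library (0 to 0), without wild type library 1 and knockout library 3 (-7.40) and without knockout libraries 2 and 3 (-10.71), a choice made after seeing the data. With 1 library left out, *Gm15551* lay between -10.71 and -7.24. With DESeq2 the count was 13, 4 of them list members, 18 without knockout library 3, and 6 for the difference between depots. The 13 included *Syngr1*, *Acta2*, *Actg2* and *Snurf*, and also *Krt5*, which among epididymal libraries had counts only in knockout library 3. With voom and quality weights the count was 3 (*Gm15551*, *Acta2* and *Ccn2*), 2 of them list members, and 6 without knockout library 3, where no filter on low counts gave 1. The count at an unadjusted p under 0.05, 814, was 1673 without a filter on low counts and 529 with the minimum of 10. The direction turned with voom and quality weights for *Adipoq* (0.049), *Lep* (0.18), *Scd1* (0.047), *Adgre1* (0.27) and *Pecam1* (0.17), without knockout libraries 2 and 3 for *Adipoq* (0.049), *Lep* (0.45), *Scd1* (0.36), *Adgre1* (0.27), *Pecam1* (0.082) and *St8sia5* (-1.87), and for *Fasn* with the block (-0.26, and -0.34 in epididymal libraries) and the random effect (-0.37). It also turned with 1 library left out, where values ran from -3.75 to 0.035 for *Rap1gap*, -0.37 to 0.19 for *Adipoq*, -0.64 to 0.24 for *Lep*, -0.73 to 0.50 for *Fasn*, -0.42 to 0.22 for *Scd1*, -0.27 to 0.30 for *Adgre1* and -0.33 to 0.16 for *Pecam1*, and without wild type library 1 and knockout library 3 for *Lep* (0.36), *Scd1* (0.14), *Adgre1* (0.27) and *Pecam1* (0.22). Relative to the deposited total instead of the scaled one, the epididymis genes of knockout library 3 summed to 10750 CPM. None of these turns concerned a called gene, and their cause was not tested. With 3 mice per group the median SE was 0.348 on the log2 scale, and differences of that size were within the error.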
